A study of Homo sapiens with 6 samples.

Results

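ANGPTL4 and 9 genes of lipid storage, fatty acid use and PPAR control were followed in 786-O cells, a human clear cell renal cell carcinoma (ccRCC) line that lacks functional VHL. They are 10 of the 20030 genes of the deposited expression table. The genes were chosen by hand with the contrast between shYB1 and vector cells already known, ANGPTL4 for its higher FPKM in shYB1 cells and PLIN2, PLIN3, HILPDA, PDK4, CPT1A, LPL, PPARA, PPARD and PPARG as lipid droplet genes, PPAR receptors and their targets. Their own differences are therefore descriptions, and the calls and intervals given for them are not read as tests. The study asked which transcripts differ after knockdown of YB1, the Y-box binding protein encoded by YBX1, and sequenced RNA of 3 vector libraries (786-O cells with a scrambled shRNA) and 3 shYB1 libraries (the same line with an shRNA against YB1). Both were stable lentiviral lines selected with puromycin and used at passages 16 to 18, and the labels name no drug treatment for either. The series text speaks of several independent shRNAs and the sample labels give 1 shYB1 group, so the values cannot be assigned to a hairpin. No source says that the libraries of a group came from separate cultures, and p-values then measure the spread between libraries, which may be technical.

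YBX1 itself had 366.5, 372.8 and 377.9 FPKM in vector and 166.7, 165.9 and 173.3 FPKM in shYB1 libraries, here and in what follows in the order of the replicate numbers. FPKM is a fragment count divided by transcript length and by the depth of the library. The groups did not overlap. The libraries summed to 282736 to 295887 FPKM, and their relative depth, read from the lowest values, ran from 0.980 to 1.10 against shYB1 replicate 1. The absolute depth is unknown. Of the 8 markers of renal carcinoma cells, 8 lay at or above 1 FPKM, and their summed level was 1997 to 2103 FPKM in vector and 2020 to 2056 FPKM in shYB1 libraries. VIM held most of that sum, with means of 1400 FPKM in vector and 1437 FPKM in shYB1 libraries. NNMT had 219 to 237 FPKM in vector and 175 FPKM in shYB1 libraries. CA9 was also lower in shYB1 libraries without overlap, and PAX2 and CDH2 were higher without overlap. Of the 6 adipocyte markers, 0 reached 1 FPKM, with a summed level of 0.145 to 0.256 FPKM in vector and 0.131 to 0.256 FPKM in shYB1 libraries, and LEP and FABP4 were listed at 0 throughout. None of the 4 endothelial and 4 fibroblast markers reached 1 FPKM. Of the 4 leukocyte markers, CD68 alone did, at 24.7 to 25.4 FPKM in vector and 22.1 to 22.6 FPKM in shYB1 libraries. In bulk RNA, fewer cells of a type and less RNA per cell cannot be told apart.

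ccRCC cells are named for the lipid and glycogen that fill their cytoplasm. Neutral lipid is held in droplets coated by perilipins, and fatty acids released from them or taken up from lipoproteins are burned in mitochondria or stored again. The PPARs are nuclear receptors that bind fatty acids and pair with RXR, and ANGPTL4, PLIN2, PDK4 and CPT1A are well-known PPAR targets. ANGPTL4, HILPDA and PLIN2 are also known targets of the hypoxia-inducible factors, which stay active in cells without VHL. In the table's annotation, 7 of the 10 genes carry the KEGG PPAR signaling pathway and 3 carry the GO term for the lipid droplet.

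The promoters of ANGPTL4, of the 2 droplet coat genes and of PPARD and PPARA are shown because YB1 is named for binding the Y-box, CCAAT, and because hypoxia and PPAR responses act through short elements of this kind. Each line gives the 250 bases before the RefSeq transcription start in GRCh38.p14, 5′ to 3′ on the gene's strand. Capitals mark CCAAT (the Y-box, also bound by NF-Y), ACGTG and GCGTG (cores of hypoxia response elements) and AGGTCA (a nuclear receptor core element), on either strand. The intervals are chr19:8363905-8364154 on the plus strand for ANGPTL4, chr9:19127493-19127742 on the minus strand for PLIN2, chr19:4867668-4867917 on the minus strand for PLIN3, chr6:35342308-35342557 on the plus strand for PPARD and chr22:46150276-46150525 on the plus strand for PPARA.
ANGPTL4: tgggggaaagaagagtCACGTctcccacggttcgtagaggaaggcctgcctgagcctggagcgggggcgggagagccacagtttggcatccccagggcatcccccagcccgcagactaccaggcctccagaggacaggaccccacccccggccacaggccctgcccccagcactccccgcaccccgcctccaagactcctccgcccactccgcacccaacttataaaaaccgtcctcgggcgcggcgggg
PLIN2: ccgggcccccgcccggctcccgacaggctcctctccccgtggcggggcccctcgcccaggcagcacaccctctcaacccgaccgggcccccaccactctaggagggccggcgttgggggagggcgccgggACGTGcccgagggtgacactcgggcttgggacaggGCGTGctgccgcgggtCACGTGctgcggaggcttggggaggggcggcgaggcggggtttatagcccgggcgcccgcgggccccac
PLIN3: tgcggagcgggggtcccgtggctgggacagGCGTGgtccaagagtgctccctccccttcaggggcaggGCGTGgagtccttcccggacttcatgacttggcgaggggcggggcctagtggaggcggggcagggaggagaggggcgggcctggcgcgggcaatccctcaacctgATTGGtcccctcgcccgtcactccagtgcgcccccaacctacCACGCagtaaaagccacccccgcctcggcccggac
PPARD: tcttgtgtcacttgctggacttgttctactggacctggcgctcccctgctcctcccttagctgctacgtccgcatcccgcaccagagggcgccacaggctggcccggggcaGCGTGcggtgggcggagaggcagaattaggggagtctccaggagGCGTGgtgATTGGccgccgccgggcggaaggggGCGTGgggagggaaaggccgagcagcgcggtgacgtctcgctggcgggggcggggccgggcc
PPARA: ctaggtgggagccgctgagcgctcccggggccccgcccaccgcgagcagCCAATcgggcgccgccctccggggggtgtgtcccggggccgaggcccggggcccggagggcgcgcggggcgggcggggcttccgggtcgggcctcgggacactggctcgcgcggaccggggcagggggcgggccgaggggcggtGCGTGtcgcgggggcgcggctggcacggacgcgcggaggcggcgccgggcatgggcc
The stretch before ANGPTL4 held 1 match to ACGTG, on the other strand, between 234 and 230 bases before the start, and none to CCAAT. PLIN2 held a palindromic CACGTG, which counts for ACGTG on both strands, between 69 and 64 bases before its start. PLIN3 and PPARD each held CCAAT on the other strand, read as ATTGG, and PPARA held it on the gene strand between 201 and 197 bases before the start.

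RefSeq promoter windows, which run from 250 bases before to 50 after a start, were found for 8 of the 10 genes, with 14 windows in all. The windows of HILPDA and LPL are not used here. CCAAT was present in 5 of the 14 windows, in PLIN3, PDK4, PPARA, PPARD and 1 of the 6 windows of PPARG, against 34.6% of all 35116 RefSeq windows. ACGTG was present in 3 windows, those of ANGPTL4, PLIN2 and 1 of PPARG, against 21.4% of all windows. GCGTG was present in 8 windows of 6 genes, against 36.5% of all windows. AGGTCA was present in 3 windows, all of PPARG and 2 of them overlapping, against 13.8% of all windows. A match is a run of letters, not a measured binding site.

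ANGPTL4, a secreted inhibitor of lipoprotein lipase, was about 2-fold higher in shYB1 cells, while the droplet genes, the receptors and the oxidation genes beside it differed by less and in both directions. ANGPTL4 had 10.2, 7.36 and 8.10 FPKM in vector and 17.5, 16.7 and 17.8 FPKM in shYB1 libraries. The groups did not overlap, and vector replicate 1 was the highest of its group. The means were 8.56 ± 1.48 FPKM (SD, n = 3) in vector and 17.3 ± 0.555 FPKM (SD, n = 3) in shYB1 cells, a ratio of 2.03. The spread was wider in vector cells, with a coefficient of variation of 17.3% against 3.20%. On the log2(FPKM + 0.1) scale the difference was 1.02 (standard error 0.10, 95% interval 0.79 to 1.26), and it was 0.97 after rescaling with median-of-ratios size factors. The gene lies at 8364155 to 8374370 on chromosome 19, plus strand, and RAB11B-AS1 overlaps it on the other strand. No source used here states strand-aware counting, so it is unknown whether reads of RAB11B-AS1 were counted for ANGPTL4.

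**Figure D1:**
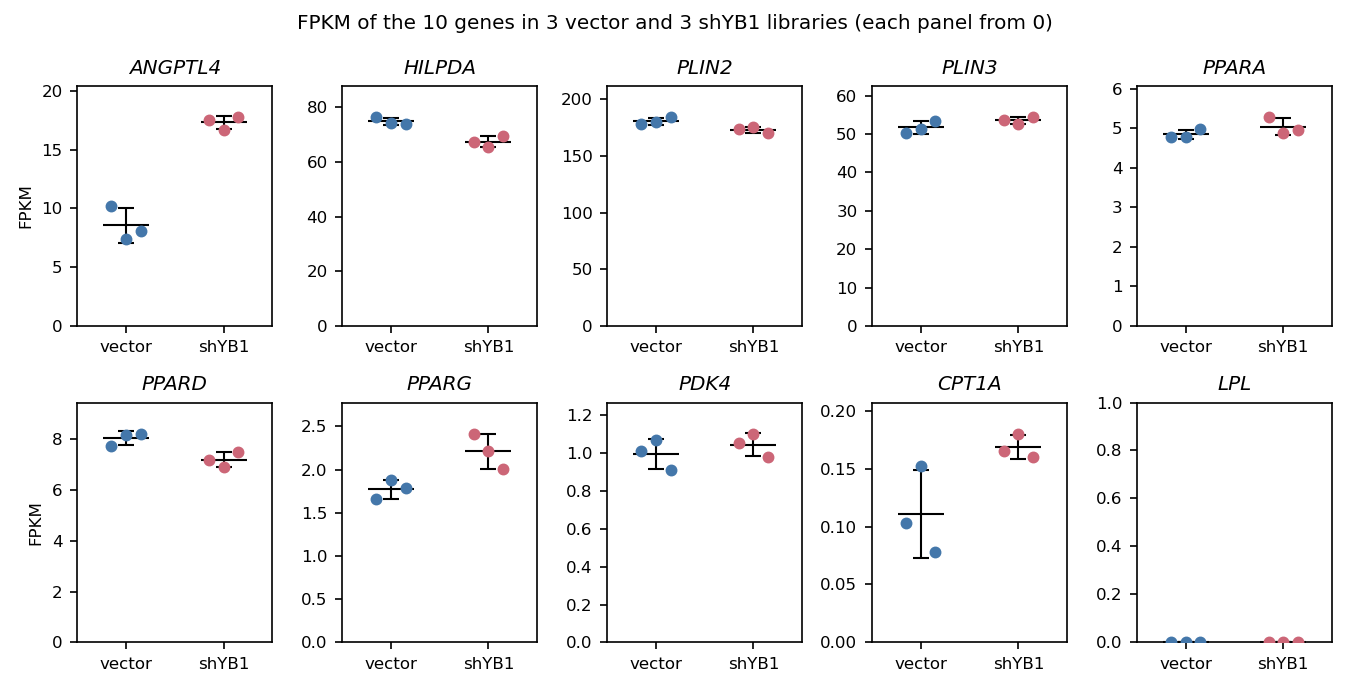
FPKM of the 10 genes in the 3 vector (blue) and 3 shYB1 (red) libraries. Each point is a library, the long line is the group mean and the bars are the SD, and every panel has its own axis from 0. ANGPTL4 averaged 8.56 FPKM in vector and 17.3 FPKM in shYB1 libraries, HILPDA, PLIN2 and PPARD had lower values in shYB1 libraries, and LPL is listed at 0 in all 6.

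Of the 10 genes, 8 averaged 1 FPKM or more and entered the fit over all 10439 genes that passed this filter. CPT1A and LPL did not. In that fit (limma, Benjamini-Hochberg adjustment, threshold 0.05), ANGPTL4 and PPARG were called higher in shYB1 cells and HILPDA lower, so that 2 of the 8 were called higher against 18.7% of all genes tested and 1 lower against 6.93%. The groups did not overlap for 5 of the 8, against 42.6% of all genes tested, with ANGPTL4 and PPARG higher and PLIN2, HILPDA and PPARD lower in shYB1 cells. Nothing is read from these counts, since the genes were chosen on the same contrast. Over all genes tested 73.0% of the 2679 calls were toward higher expression, and after median-of-ratios rescaling 48.8% were, with 1192 genes higher and 1253 lower. The median log2 difference of all genes tested was 0.055 in the deposited FPKM and near 0 after that rescaling.

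The droplet genes were the most abundant of the group. PLIN2, the perilipin that coats droplets in most cells outside fat tissue, had 178, 180 and 184 FPKM in vector and 174, 176 and 170 FPKM in shYB1 libraries. The shYB1 libraries were all slightly lower. The means were 181 ± 3.20 and 173 ± 2.87 FPKM (SD, n = 3 each), a log2 difference of −0.061 (standard error 0.030, 95% interval −0.13 to 0.0064), and −0.12 after rescaling.

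HILPDA, a small droplet protein that inhibits the lipase PNPLA2, had 76.3, 74.2 and 73.9 FPKM in vector and 67.2, 65.4 and 69.5 FPKM in shYB1 libraries. Every shYB1 library lay below every vector library. The means were 74.8 ± 1.31 and 67.4 ± 2.06 FPKM (SD, n = 3 each), and the log2 difference was −0.15 (standard error 0.034, 95% interval −0.23 to −0.075), or −0.21 after rescaling. Of the 50-base words of its transcripts, 10.2% also occur in other genes, most often in the overlapping gene AC010655.2. Part of its reads may therefore be counted with HILPDA or with another gene.

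PLIN3, a perilipin that moves between the cytosol and new droplets, had 50.4, 51.3 and 53.5 FPKM in vector and 53.7, 52.7 and 54.4 FPKM in shYB1 libraries, and the groups overlapped. Its log2 difference was 0.051 (standard error 0.035) in the deposited FPKM and −0.0044 after rescaling, so its sign depends on the scaling. The ratio of PLIN2 to PLIN3 within a library, which any scaling of whole libraries leaves as it is, was 3.53, 3.50 and 3.44 in vector and 3.24, 3.33 and 3.12 in shYB1 libraries, and these did not overlap. PLIN2 made up 77.7% and PLIN3 22.2% of the summed FPKM of the 5 perilipin genes in vector cells, against 76.3% and 23.6% in shYB1 cells. PLIN1, PLIN4 and PLIN5, the forms of fat, muscle and other oxidative tissue, each stayed under 0.1%.

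The receptors differed among themselves. PPARD, the broadly expressed receptor, had 7.74, 8.18 and 8.21 FPKM in vector and 7.19, 6.91 and 7.48 FPKM in shYB1 libraries. The shYB1 libraries were all lower, with means of 8.04 ± 0.263 and 7.19 ± 0.284 FPKM (SD, n = 3 each) and a log2 difference of −0.16 (standard error 0.054, 95% interval −0.28 to −0.040), or −0.21 after rescaling.

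PPARG, the receptor that drives fat cell formation, had 1.66, 1.88 and 1.78 FPKM in vector and 2.41, 2.21 and 2.01 FPKM in shYB1 libraries. The shYB1 libraries were all higher, and shYB1 replicate 3 came closest to the vector range. The means were 1.77 ± 0.109 and 2.21 ± 0.203 FPKM (SD, n = 3 each), a ratio of 1.25 and a log2 difference of 0.30 (standard error 0.094, 95% interval 0.094 to 0.51), or 0.25 after rescaling.

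PPARA, the receptor known for fatty acid oxidation in liver and kidney tubules, had 4.77, 4.78 and 4.98 FPKM in vector and 5.28, 4.89 and 4.95 FPKM in shYB1 libraries. The groups overlapped, and the log2 difference was 0.055 (standard error 0.059), close to the median of all genes tested, and 0.00080 after rescaling. Within the PPAR family, PPARD made up 54.6% to 55.1% of the summed FPKM in the vector libraries and 48.3% to 51.8% in the shYB1 libraries. PPARG made up 11.7% to 12.7% and 13.9% to 16.2%, and PPARA 32.2% to 33.7% and 34.3% to 35.5%. None of these shares overlapped between the groups. They are parts of the same sum, so a lower PPARD share raises the others, and PPARA itself overlapped in FPKM. The ratio of PPARD to PPARG within a library was 4.54 ± 0.162 in vector and 3.28 ± 0.394 in shYB1 cells (SD, n = 3 each).

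**Figure D2:**
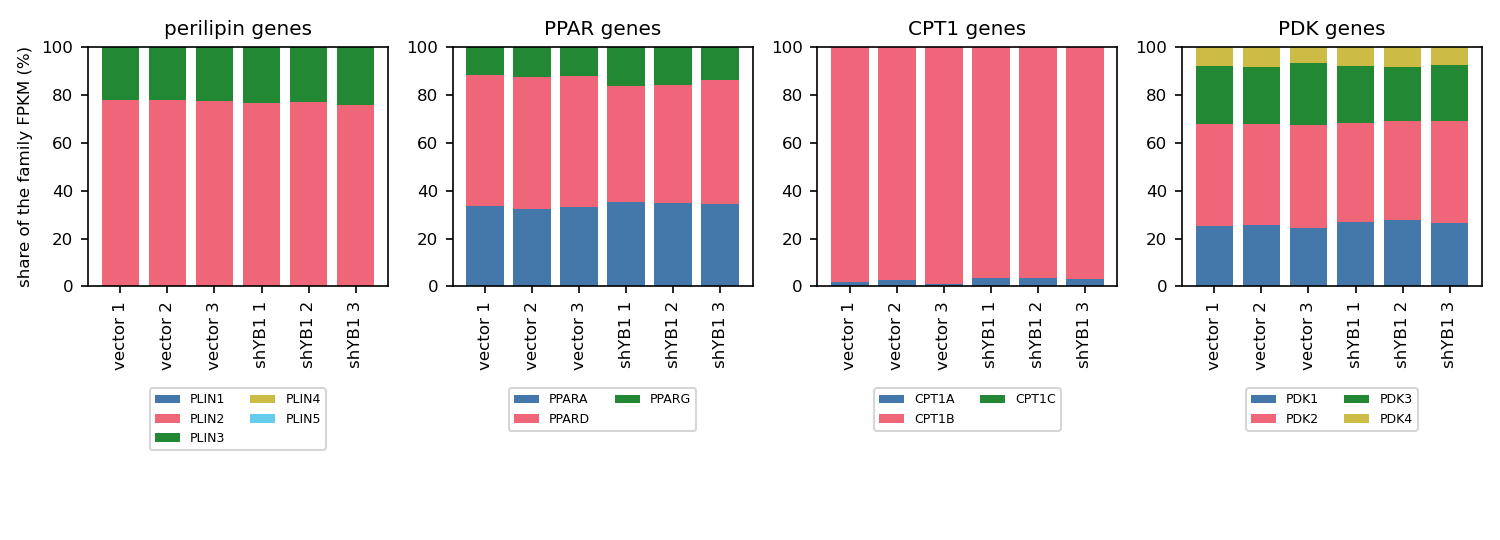
Share of the summed FPKM of each gene family (vertical axis, percent) in each of the 6 libraries, for the perilipin, PPAR, CPT1 and PDK genes. PPARD averaged 54.9% of the PPAR sum in vector and 49.8% in shYB1 libraries and PPARG 12.1% and 15.3%, while CPT1B stayed above 96% of the CPT1 sum in every library.

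PDK4 and CPT1A, the chosen genes of fatty acid use in mitochondria, were expressed at low levels. This does not hold for the pathway, where 21 of 24 listed fatty acid oxidation genes passed the filter. PDK4, a kinase that shuts off pyruvate dehydrogenase and so turns mitochondria toward fatty acids, had 1.01, 1.07 and 0.911 FPKM in vector and 1.05, 1.10 and 0.980 FPKM in shYB1 libraries. The groups overlapped, and the log2 difference was 0.063 (standard error 0.11, 95% interval −0.18 to 0.30). PDK4 passed the filter with a mean of 1.02 FPKM and made up 6.88% to 8.45% of the PDK sum in vector and 7.57% to 8.33% in shYB1 libraries, the smallest share of the 4 kinases.

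CPT1A, the liver-type enzyme that moves fatty acids into mitochondria, had 0.103, 0.152 and 0.0777 FPKM in vector and 0.165, 0.180 and 0.160 FPKM in shYB1 libraries. All 6 values are far below the filter. In a fit with no filter the log2 difference was 0.36 (standard error 0.15, 95% interval −0.00063 to 0.72), on a scale where the added 0.1 is about as large as the values. CPT1A made up 1.84% ± 0.674 of the CPT1 sum in vector and 3.46% ± 0.399 in shYB1 cells (SD, n = 3 each), with no overlap between the libraries. Nearly all of the rest was CPT1B, the muscle-type enzyme, which had 5.64, 5.83 and 6.43 FPKM in vector and 4.28, 4.74 and 5.17 FPKM in shYB1 libraries and fell by 0.33 on the log2 scale (standard error 0.079, adjusted p = 0.0127 with limma). Of the 50-base words of CPT1B, 62.4% also occur in other genes, most often in the readthrough gene CHKB-CPT1B, and its level is uncertain to that extent.

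LPL, the lipase that ANGPTL4 inhibits, was listed at 0 in all 6 libraries, and no fold is given. Of its close relatives, LIPG, the endothelial lipase, made up 95.1% of the summed FPKM of LPL, LIPC and LIPG in vector and 93.9% in shYB1 cells. LIPG had 5.08, 5.33 and 5.20 FPKM in vector and 4.63, 4.70 and 4.83 FPKM in shYB1 libraries, which did not overlap. Its call depended on the scaling, with an adjusted p of 0.0977 in the deposited FPKM and 0.0300 after median-of-ratios rescaling (limma). ANGPTL4 itself was 93.6% of the sum of the 8 ANGPTL genes in vector and 97.1% in shYB1 cells. ANGPTL8, another regulator of lipoprotein lipase, stayed under 0.5 FPKM in every library.

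Across the group the order of the mean FPKM was the same in vector and shYB1 cells, with PLIN2 first, then HILPDA, PLIN3, ANGPTL4, PPARD, PPARA, PPARG, PDK4, CPT1A and LPL. Neighbours in this order had separate ranges, except ANGPTL4 and PPARD in vector cells, where vector replicates 2 and 3 had less ANGPTL4 than PPARD. Within a library, ANGPTL4 was 1.07 ± 0.221 of PPARD in vector and 2.41 ± 0.0324 of it in shYB1 cells (SD, n = 3 each). The ratio of ANGPTL4 to HILPDA was 0.134, 0.0991 and 0.110 in vector and 0.261, 0.255 and 0.255 in shYB1 libraries. The ratio of ANGPTL4 to PLIN2 was 0.0574, 0.0410 and 0.0440 in vector and 0.101, 0.0952 and 0.104 in shYB1 libraries. HILPDA and PLIN2 had lower values in shYB1 cells and ANGPTL4 higher ones, in the deposited FPKM and after each rescaling tried. The higher values of ANGPTL4 are those it was chosen for.

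**Figure D3:**
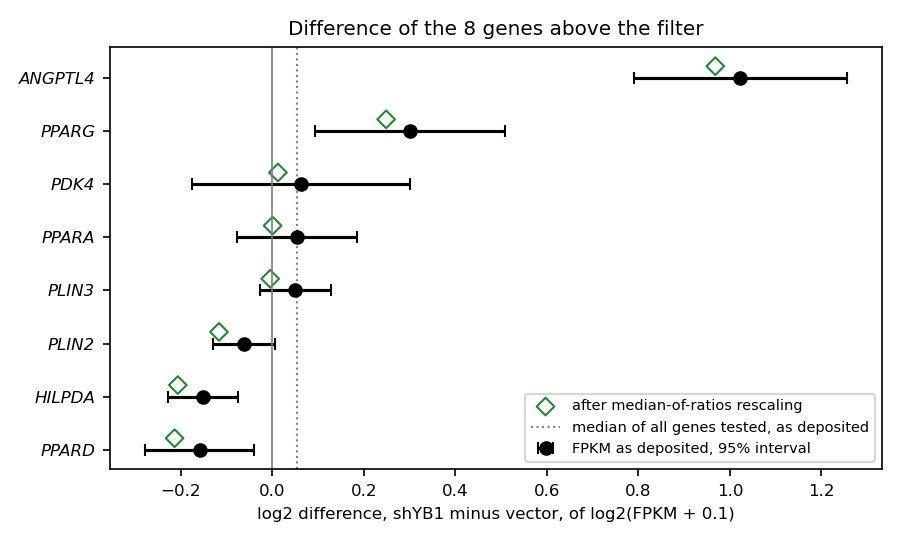
Difference of log2(FPKM + 0.1), shYB1 minus vector, for the 8 genes above the filter. Filled points with bars give the deposited FPKM with the 95% interval of the limma fit, open diamonds the value after median-of-ratios rescaling, and the dotted line the median of all genes tested (0.055). ANGPTL4 stands at 1.02, and the other 7 lie between −0.16 and 0.30.

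The correlation of log2(FPKM + 0.1) with ANGPTL4 over the 6 libraries describes which genes ran beside it. The libraries fall into 2 groups, and the group difference sets most of each value. Among the tested genes most alike were the chromatin protein HMGB2 (Pearson r = 0.998), the respiratory chain subunit COX6A1 (0.996), the Polycomb protein BMI1 (0.995) and the coenzyme A hydrolase NUDT19 (0.995). All had the lowest level in vector replicate 2 and the highest vector level in vector replicate 1, as ANGPTL4 did, and their log2 differences lay between 0.12 and 0.41. These genes were picked for their correlation, so the shared order of the vector libraries is not a separate result. None of these is a lipid storage gene. COX6A1 and BMI1 share 17.9% and 21.3% of their 50-base words with other genes. Among the chosen genes the correlation with ANGPTL4 was −0.908 for PPARD, −0.870 for PLIN2, −0.841 for HILPDA and 0.755 for PPARG, and 0.567, 0.541 and 0.320 for PLIN3, PPARA and PDK4.

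To set these genes beside their pathways, 10 lists of 155 genes were written, of which 107 passed the filter. At an adjusted p under 0.05 (limma, Benjamini-Hochberg adjustment over all genes tested), 16 of the 107 rose and 16 fell, against 18.7% and 6.93% of all genes tested, and 75 were not called. The split depended on the scaling, with 11 higher and 27 lower after median-of-ratios rescaling, where the counts over all genes tested were 1192 and 1253. Without vector replicate 1 or without shYB1 replicate 2 the count of higher genes was 9. The median log2 difference of the 107 was 0.011, and 13 of the 155 were listed at 0 in all libraries. Genes beyond the largest changes of each list are also named here, some to complete a count and some uncalled, and were chosen after their values were seen.

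Of the PPAR partners and coregulators, 3 of 11 rose and 0 fell. NRIP1, a corepressor of nuclear receptors in fat and liver, rose from 15.7 ± 0.134 to 18.7 ± 0.581 FPKM (SD, n = 3 each; log2 difference 0.25, adjusted p = 0.00205 with limma). MED1, the Mediator subunit that nuclear receptors contact, and CREBBP, an acetyltransferase, were the others, with log2 differences of 0.23 and 0.22. RXRA, the obligate partner of the PPARs, had 17.9 to 19.1 FPKM in vector and 17.5 to 18.0 FPKM in shYB1 libraries (adjusted p = 0.484 with limma). After rescaling 1 was higher and 1 lower.

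Of the droplet coat and lipolysis genes, 1 of 11 rose and 1 fell. G0S2, a droplet protein that inhibits PNPLA2 as HILPDA does, had 128, 127 and 134 FPKM in vector and 91.1, 93.6 and 93.7 FPKM in shYB1 libraries, and fell by 0.48 on the log2 scale (standard error 0.033, adjusted p = 7.81e-06 with limma). This was the largest change of the 10 lists among tested genes. PNPLA2, the lipase itself, had 27.0, 28.8 and 30.1 FPKM in vector and 31.4, 26.4 and 27.9 FPKM in shYB1 libraries (adjusted p = 0.957 with limma). ABHD5, its activator, had 2.34 to 2.82 and 2.95 to 3.17 FPKM (adjusted p = 0.0578 with limma). AUP1, a droplet protein of the degradation machinery of the endoplasmic reticulum, rose from 45.2 ± 2.61 to 51.1 ± 0.985 FPKM (SD, n = 3 each; adjusted p = 0.0140 with limma). After rescaling 1 was higher and 2 were lower, G0S2 and BSCL2, the seipin gene of droplet formation (adjusted p = 0.0239 with limma, against 0.0575 in the deposited FPKM).

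Of the fatty acid oxidation genes, 2 of 21 rose, ETFA, which passes electrons on from the acyl-CoA dehydrogenases, and ECI2, an isomerase for unsaturated chains. Their log2 differences were 0.20 and 0.18. CPT1B fell, as given above. The other 18 were not called, among them the dehydrogenases ACADM and ACADVL and the trifunctional protein genes HADHA and HADHB, and the list's median was 0.062 against 0.055 for all genes tested. After rescaling 1 was higher and 3 were lower. Of the pyruvate dehydrogenase genes, 1 of 10 rose, PDHA1, the catalytic subunit that PDK4 phosphorylates, from 20.5 ± 1.06 to 24.0 ± 0.873 FPKM (SD, n = 3 each; adjusted p = 0.00705 with limma).

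Triglyceride synthesis and fatty acid activation genes moved in both directions, with 2 of 14 higher and 3 lower. GPAT3, which starts glycerolipid synthesis, rose by 0.35 on the log2 scale (adjusted p = 0.00644 with limma) and ACSL3, an acyl-CoA synthetase of nascent droplets, by 0.24 (adjusted p = 0.00402 with limma). LPIN3, a phosphatidate phosphatase, fell by 0.39 (adjusted p = 0.00122 with limma) and ACSL4, the synthetase that prefers arachidonate, by 0.24 (adjusted p = 0.00290 with limma). DGAT1, which makes triglyceride, was the other lower gene, at 12.9 to 13.2 FPKM in vector and 11.6 to 12.1 FPKM in shYB1 libraries. After rescaling 2 were higher and 4 lower.

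Of the uptake genes, 2 of 8 rose and 3 fell. The lipoprotein receptor VLDLR fell from 16.0 ± 0.545 to 13.4 ± 0.252 FPKM (SD, n = 3 each; log2 difference −0.25, adjusted p = 0.00305 with limma), and LRP1, a relative of it, was also lower, with a log2 difference of −0.20 (adjusted p = 0.0114 with limma). The fatty acid transport protein SLC27A4 and the fatty acid binding protein FABP5 rose by 0.30 and 0.29, FABP5 from 30.6 ± 1.29 to 37.5 ± 1.35 FPKM (SD, n = 3 each; adjusted p = 0.00111 with limma). FABP5 shares 18.4% of its 50-base words with other genes, most often with FABP5P7. After rescaling 2 were higher and 4 lower. Of the ANGPTL and lipase regulators, 1 of 5 tested genes rose, PCSK7, a proprotein convertase (log2 difference 0.23, adjusted p = 0.0193 with limma), and 6 of the 21 listed were at 0 in all libraries. After rescaling 1 was higher and 2 were lower, LIPG and SEL1L, which helps lipoprotein lipase leave the endoplasmic reticulum (adjusted p = 0.0266 with limma, against 0.0953 in the deposited FPKM). FURIN, the convertase best known for cleaving such secreted proteins, had 11.3 to 11.7 FPKM in vector and 12.2 to 13.2 FPKM in shYB1 libraries (adjusted p = 0.0764 with limma).

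Of the fatty acid synthesis genes, 1 of 11 rose and 2 fell. SCD, the desaturase that makes oleate, had 677, 694 and 690 FPKM in vector and 546, 561 and 529 FPKM in shYB1 libraries and fell by 0.33 on the log2 scale (standard error 0.032, adjusted p = 8.00e-05 with limma). SREBF1, the transcription factor behind the lipogenic genes, fell by 0.17 (adjusted p = 0.00984 with limma), and FADS1, a desaturase of polyunsaturated chains, rose by 0.19 (adjusted p = 0.00644 with limma). FASN had 24.7 to 25.8 FPKM in vector and 23.1 to 23.8 FPKM in shYB1 libraries and was not called (adjusted p = 0.0586 with limma), but was called lower after rescaling (0.0107). After rescaling 1 was higher and 4 lower.

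Since ANGPTL4, HILPDA and PLIN2 respond to hypoxia-inducible factors, and ANGPTL4 also to glucocorticoids, other genes of these responses were counted. Of the hypoxia-induced genes, 3 of 9 rose, SLC2A1, KDM3A and NDRG1, and 3 fell, EGLN3, ADM and VEGFA, with 1 higher and 4 lower after rescaling, where KDM3A and NDRG1 were no longer called and CA9 was called lower. SLC2A1, the glucose transporter, rose from 295 ± 4.34 to 345 ± 6.51 FPKM (SD, n = 3 each; adjusted p = 0.000639 with limma), and EGLN3, a prolyl hydroxylase, fell from 41.6 ± 2.23 to 35.9 ± 0.522 FPKM (SD, n = 3 each; adjusted p = 0.00595 with limma). Of the glucocorticoid receptor and induced genes, 0 of 7 rose and 3 fell, TSC22D3, SGK1 and PER1, by 0.32, 0.31 and 0.30 on the log2 scale, and the same count held after rescaling. The receptor gene NR3C1 had 9.01 to 9.83 FPKM in vector and 8.81 to 9.20 FPKM in shYB1 libraries (adjusted p = 0.516 with limma).

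**Figure D4:**
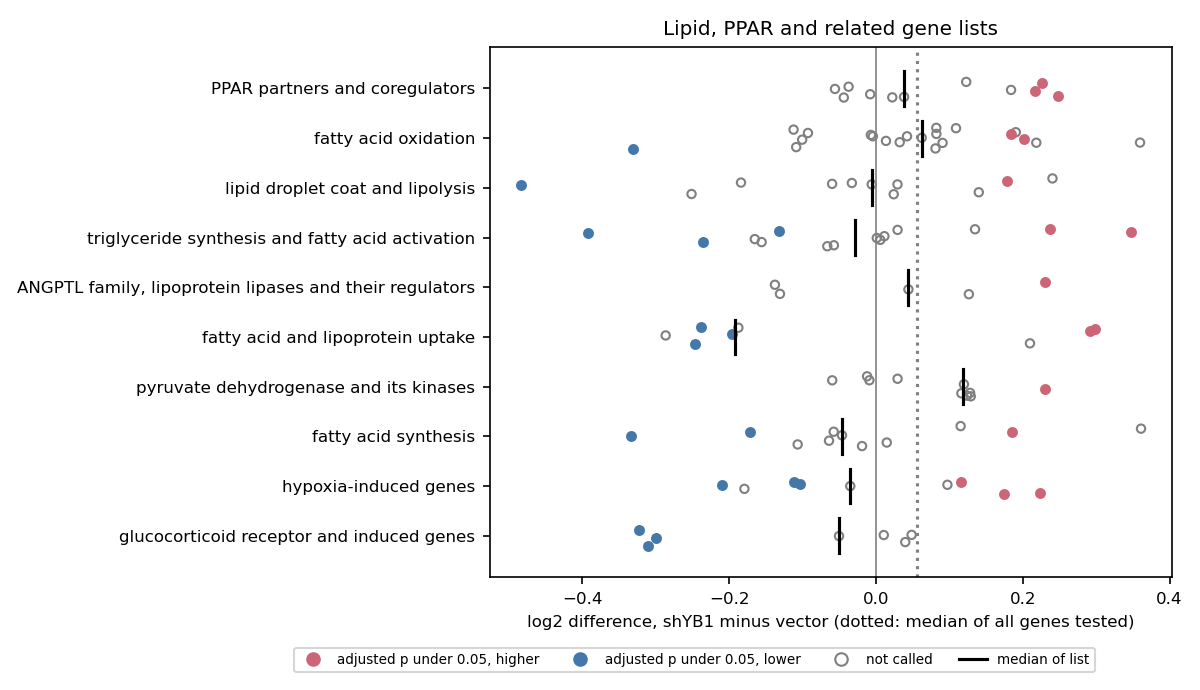
Difference of log2(FPKM + 0.1), shYB1 minus vector, of every tested gene of the 10 lists (1 row of points for each list). Filled points passed an adjusted p under 0.05 with limma (red higher, blue lower), open points did not, the short black line is the median of the list and the dotted line the median of all genes tested. List medians run from −0.19 for uptake to 0.12 for pyruvate dehydrogenase, and red and blue points lie side by side in most lists.

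Of the 26 genes with the largest changes in their lists, 6 lost their calls under some alternatives, with the direction unchanged. All 26 were picked for groups that do not overlap, so only the 3 rescalings could have changed a direction. Without vector replicate 1 the log2 difference was 0.21 for MED1 (adjusted p = 0.0829 with limma), 0.17 for ECI2 (0.0580), 0.16 for AUP1 (0.0507), 0.19 for PCSK7 (0.0707), −0.12 for ADM (0.0507) and 0.15 for KDM3A (0.132). Without shYB1 replicate 2 it was 0.21 for MED1 (adjusted p = 0.0863 with limma), 0.14 for ECI2 (0.0699), 0.16 for AUP1 (0.0543), 0.24 for PCSK7 (0.0536), −0.11 for ADM (0.0901) and 0.15 for KDM3A (0.145). Without shYB1 replicate 1 it was 0.19 for MED1 (adjusted p = 0.0977 with limma), 0.21 for PCSK7 (0.0634), −0.11 for ADM (0.0873) and 0.19 for KDM3A (0.0817). Without vector replicate 2, AUP1 stood at 0.15 (adjusted p = 0.0515 with limma) and KDM3A at 0.17 (0.0959), without vector replicate 3 MED1 at 0.19 (0.0760), and without shYB1 replicate 3 ADM at −0.12 (0.0573) and KDM3A at 0.18 (0.0791). After median-of-ratios rescaling MED1, ECI2 and KDM3A lost their calls, with adjusted p of 0.0845, 0.0657 and 0.133 with limma. After quantile normalization MED1, ECI2, PCSK7, ADM and KDM3A did, with 0.0868, 0.0787, 0.0569, 0.215 and 0.139, and the log2 difference of ADM was then −0.038 against −0.11 in the deposited FPKM. With a variance prior without trend MED1 and AUP1 lost their calls, with adjusted p of 0.0539 and 0.0524 with limma, and so did ADM. With no filter MED1 and KDM3A did, with 0.0661 and 0.0600, and KDM3A also with libraries scaled to a common total (0.0520) and with the replicate block (0.0584). The other 20 genes were called under all 15 alternatives.

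The KEGG PPAR signaling pathway, counted from the table's own annotation, has 74 genes, of which 32 passed the filter and 7 are among the chosen genes. At an adjusted p under 0.05 with limma, 6 of the 32 were higher and 4 lower, against 18.7% and 6.93% of all genes tested, with a median log2 difference of −0.013. After rescaling 5 were higher and 10 lower, where 1192 and 1253 of all 10439 genes tested were. ANGPTL4 and PPARG, chosen on this same contrast, are among the 6 higher genes of the deposited FPKM. With 38 of the 74 genes also in the lists above, the count is not separate from them. Outside the lists above, PCK2, the mitochondrial enzyme of glyceroneogenesis, rose from 19.3 ± 0.424 to 24.2 ± 0.425 FPKM (SD, n = 3 each; adjusted p = 0.000307 with limma). DBI, which binds acyl-CoA, fell from 120 ± 2.83 to 100 ± 1.57 FPKM (SD, n = 3 each; adjusted p = 0.000349 with limma).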

How the data were processed

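RNA of 3 vector and 3 shYB1 libraries of 786-O cells was sequenced, and the authors deposited 1 table of FPKM per gene with GO and KEGG annotation. The submitters' processing notes name Trimmomatic, HISAT2, Cufflinks, HTSeq and DESeq and the build GRCh38, with no versions. Strand-aware counting is not given in the sources used here. The deposited FPKM are not counts, so no count test was used, and 0 columns of per-sample values were left out. The 10 genes and all gene lists were chosen with earlier results of these data known.

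From log2(FPKM + 0.1), genes averaging 1 FPKM or more were fitted with limma 3.58.1 (R 4.3.3, trend and robust prior) with Benjamini-Hochberg adjustment, two-sided, with no replicate block. The fit was tested on simulated data. By a fixed rule the text names the 10 genes, YBX1, from each list the 2 called genes with the largest rise and the 2 with the largest fall whose groups do not overlap, and the 5 genes most correlated with ANGPTL4. Further genes of the lists and the KEGG pathway are named outside this rule, after their values were seen. Promoters came from RefSeq (GRCh38.p14), and words shared between genes from 50-base words of GENCODE transcripts. The summaries used Python 3.11.15, NumPy 2.4.6, pandas 2.3.3 and matplotlib 3.10.9. Alternatives changed the pseudocount, the filter, the scaling, the variance prior and the block, and left out each library. A low FPKM rests on few fragments, and the added 0.1 shrinks its differences. A protein comparison was not run, and some genes that this rule names are not reported here.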

Additional observations from a re-analysis of the deposited data

How the results depend on the processing

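The log2 difference of ANGPTL4 kept its sign in all 15 alternatives and ran from 0.92 to 1.16, both ends reached by leaving out 1 library. Where groups do not overlap, as for ANGPTL4, PLIN2, HILPDA, PPARD and PPARG, only the 3 rescalings could have changed the sign. These were size factors, a common total and quantile normalization. PLIN2, HILPDA and PPARD stayed below 0 in all 15, and PPARG and PDK4 above 0 in those that kept them, since both lie under the filter of 5 FPKM, while PLIN3 and PPARA changed sign with the scaling, to −0.0044 for PLIN3 with median-of-ratios size factors and −0.0067 for PPARA with quantile normalization. With median-of-ratios size factors 1192 genes were higher and 1253 lower over all genes tested, and with quantile normalization 1267 and 1184. Of the listed genes, 27 were lower with size factors. With 1 library left out, the counts over all genes tested were 1323 to 1944 higher and 513 to 606 lower, and over the lists 9 to 18 higher and 12 to 16 lower. With Spearman's correlation the median likeness of the 5 genes to ANGPTL4 was 0.943. On the gene strand alone, CCAAT was in 2 and ACGTG in 1 of the 14 promoter windows. None of the 26 named list genes reversed. They were picked for groups that do not overlap, so only the 3 rescalings could have reversed one. FPKM give no depth, so counting error could not be set apart from the spread between libraries, and CPT1A, PDK4 and LPL are limited by their low level.

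Replicate numbers are shared by the groups, but libraries with the same number did not deviate together, with correlations of −0.169, −0.059 and −0.0082 for the 3 pairs and −0.051 to 0.113 for the others. With the replicate block, 2074 genes were higher and 760 lower over all genes tested, 18 and 17 over the lists, and ANGPTL4 differed by 1.02 on the log2 scale (standard error 0.077). The block ended the call of KDM3A (adjusted p = 0.0584 with limma, against 0.0446 without it) and of no other named list gene.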

Other observations

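Below the filter of 1 FPKM, a few storage genes outside the tested set had groups that did not overlap. They were picked out after their values were seen. DGAT2, which like DGAT1 makes triglyceride, had 0.345, 0.433 and 0.447 FPKM in vector and 0.718, 0.727 and 0.840 FPKM in shYB1 libraries, a log2 difference of 0.76 (adjusted p = 0.0113 with limma in a fit with no filter). ACSL5, an acyl-CoA synthetase, had 0.442, 0.529 and 0.476 FPKM in vector and 0.931, 0.855 and 0.961 FPKM in shYB1 libraries, a log2 difference of 0.80 (adjusted p = 0.00548 with limma in the same fit). PPARGC1A, a coactivator of the PPARs, had 0.739, 0.669 and 0.689 FPKM in vector and 0.520, 0.552 and 0.575 FPKM in shYB1 libraries, and was not called (adjusted p = 0.107 with limma in the same fit). CD36, a fatty acid transporter, had 0.0287 to 0.0393 FPKM in vector libraries and was listed at 0 in the 3 shYB1 libraries.

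Of the genes beside ANGPTL4 on chromosome 19, those examined did not differ in the same way. A neighbour whose RefSeq symbol is not among the listed genes was left out, so the side after ANGPTL4 is incomplete. NDUFA7, RPS28 and KANK3 lie before ANGPTL4 and RAB11B and HNRNPM after it, and the groups overlapped for all 5. NDUFA7, a subunit of respiratory complex I, had 42.2 to 48.9 FPKM in vector and 46.4 to 50.4 FPKM in shYB1 libraries (adjusted p = 0.368 with limma), and RAB11B, a small GTPase of recycling endosomes, 37.2 to 43.9 and 37.2 to 39.7 FPKM (adjusted p = 0.417 with limma). HNRNPM had 59.3 to 64.3 and 62.2 to 65.7 FPKM (adjusted p = 0.247 with limma). KANK3 stayed under 0.05 FPKM, too low for its overlap to say anything.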
